A study of Aedes albopictus with 6 samples.

Results

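A cluster of small RNA tags on scaffold NW_021837998.1 of the Asian tiger mosquito, Aedes albopictus, was described along its 103 kb, from base 371515 to base 474486. Its members were all tags of the deposited table that lay between these bases, 349 of the 22773 tags in the table, taken by position from a list that was itself filtered on the counts. The study set virgin adult females, 2 days after emergence, against males of that age, with whole bodies as the source and 3 libraries titled for each sex. The table holds 1 count column for females and 1 for males, so each value below is a single pooled value per sex and has no replicate check. The table lists only tags at least 2-fold apart between these same columns, so the direction of a listed tag is not independent evidence.

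PIWI-interacting RNAs (piRNAs) are small RNAs of the animal germ line, bound by PIWI proteins, that guide the silencing of transposons. Most come from genomic clusters, stretches rich in transposon remnants whose long transcripts are cut into many piRNAs. In Aedes mosquitoes, piRNAs are also made in tissues outside the gonads and from the RNA of infecting viruses. The labels name the whole table as small RNA and give no class to single tags. In whole bodies, fewer cells of a type and less RNA per cell cannot be told apart, and the ovary and testis are included with all other tissues.

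Levels are given as TPM, which in this table is a count scaled to the column's total and not corrected for tag length. Those totals came to 2677063 counts in the female column and 2060047 in the male column. All listed tags of the table together held 10.04% of the female and 10.8% of the male total. Brackets hold exact 95% intervals, which cover counting error only and not the spread between mosquitoes or libraries. A stretch is called led by one sex when the interval of its male over female ratio excludes 1.

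Over all listed tags of the cluster the sexes were level, as the leads of oppositely directed sets of tags nearly cancelled in sum. Listed tags summed to 3812 female counts, a TPM of 1424, and to 2910 male counts, a TPM of 1413. The ratio of male to female TPM was 0.99 (0.94 to 1.04). Other nuclear listed tags were level too, at 1.006 (0.9997 to 1.011), so a level sum did not set the cluster apart from them. Single regions could differ from both. The next cluster upstream stood at 1.29, the region with most nuclear tags at 0.51 and a region on NW_021837489.1 at 1.22. The 218 female-higher tags had 2822 female and 410 male counts, and the 131 male-higher tags had 990 female and 2500 male counts. Male-higher tags made up 37.5% (32.4 to 42.9) of the cluster, where they made up 31.7% of all listed tags, and female-higher tags made up 62.5% beside 68.3%. The ratio of sums depended on the scaling. TMM factors moved every male over female value by -0.44 on the log2 scale and gave 0.73 for the cluster, and RLE factors moved it by -1.17 and gave 0.44. Both sets of factors came from the listed tags alone, none of them within 2-fold, so they do not decide which scaling is right.

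Counts in both sexes were less common than counts in one. In the cluster 156 tags (44.7%) were listed in females alone, beside 55.7% of all listed tags, and 73 (20.9%) in males alone, beside 17% of all. The 156 had between 6 and 37 female counts with a median of 7, and the 73 had between 6 and 20 male counts with the same median of 7. Most one-sex tags thus stood close to the lowest sum of counts in the table, which is 6, and a listed 0 can stand for 1 count, since no value of 1 occurs. The other 120 tags had counts in both sexes, 62 of them higher in females and 58 in males. Their median fold was 3.33 for the female-higher and 3.16 for the male-higher tags, where other nuclear tags counted in both sexes had medians of 3.85 and 4.16. Counting error left the ratio clear of 1 in 135 tags that were female-higher, beside 44.6% of all listed tags, and in all 131 that were male-higher, beside 31.7%. The second count was fixed by the list and the column totals, since 6 male counts with 0 listed in females already gave a low bound of 1.53. The interval included 1 for the remaining 83 tags, which had at most 22 female counts.

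**Figure D1:**
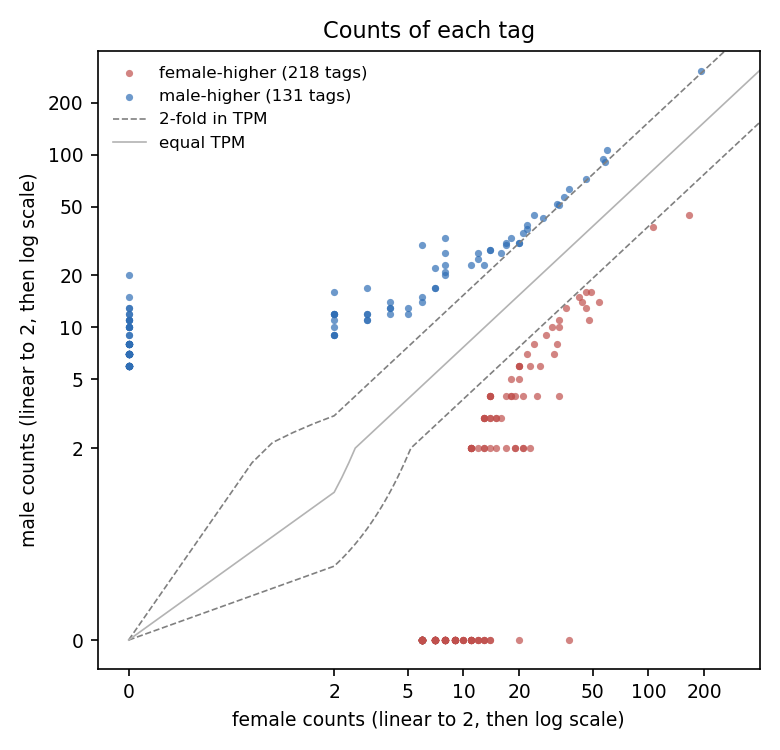
Female counts (x axis) and male counts (y axis) of the 349 tags, both axes linear up to 2 counts and logarithmic above; the dashed lines mark 2-fold in TPM and the grey line equal TPM. No tag lies between the dashed lines, the tags on the axes are the 156 and 73 listed in one sex alone, and the most counted male-higher tags lie close to the upper dashed line.

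The most counted male-higher tags lay near the 2-fold edge of the list. The 25-nt tag at bases 396822 to 396846 (t00008641) had the most counts of the cluster in both sexes, 192 (166 to 221) in females and 305 (272 to 341) in males. These are TPM values of 71.7 and 148, and the male level was the higher by 2.06-fold (1.72 to 2.49). Second among male-higher tags came the 27-nt tag at 395032 to 395058 (t00022804), with 60 female and 106 male counts and a male lead of 2.30-fold (1.66 to 3.21). The other 6 of the 8 most counted male-higher tags lay between 2.03-fold and 2.21-fold. With RLE factors 7 of these 8 turned to slightly higher in females, and the tag at 395032 did not.

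Among female-higher tags the most counted was the 27-nt tag at 387062 to 387088 (t00018585), with 166 (142 to 193) female and 45 (32.8 to 60.2) male counts. Its female lead was 2.84-fold (2.03 to 4.04). The 29-nt tag at 379290 to 379318 (t00025608) had 106 (86.8 to 128) female and 38 (26.9 to 52.2) male counts, a female lead of 2.15-fold (1.47 to 3.20). The other 6 of the 8 most counted female-higher tags had between 44 and 54 female counts and 11 to 16 male counts, 2.21-fold to 3.36-fold higher in females. All 16 tags had counts in both sexes.

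Larger folds came from tags with few counts, and their intervals were wide. Among tags with counts in both sexes and at least 20 in all, the largest female lead was at 426316 to 426342 (27 nt), with 23 female and 2 male counts, a ratio of 8.85 (2.19 to 77.4). The tags at 386063 and 425170, of 27 and 26 nt, each had 21 female and 2 male counts, and the 24-nt tag at 430576 had 19 and 2. The largest male lead in that set was at 403821 to 403846 (26 nt), with 3 female and 17 male counts, a ratio of 7.36 (2.13 to 39.2). It was followed by the 26-nt tag at 417355, with 6 and 30 counts, the 27-nt tag at 408310, with 8 and 33, and the 28-nt tag at 374281, with 8 and 27. The tag at 409994, which had 2 female and 16 male counts and so was below 20, reached 10.4-fold and was chosen after its value was seen.

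Few tags listed in one sex alone were well counted. The highest was the 26-nt tag at 458514 to 458539, with 37 (26.1 to 51.0) counts in females and 0 listed in males. Next in females came the 26-nt tag at 386843 with 20 counts and the 27-nt tags at 409963 and 454755 with 14 each. In males alone the highest was the 25-nt tag at 468234 to 468258, with 20 (12.2 to 30.9) counts, followed by the 27-nt tag at 417354 with 15 and by tags at 397030 and 467874 with 13 each. The male tag at 417354 ended on the same base as the 26-nt tag at 417355 named above, which had 6 female counts.

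**Figure D2:**
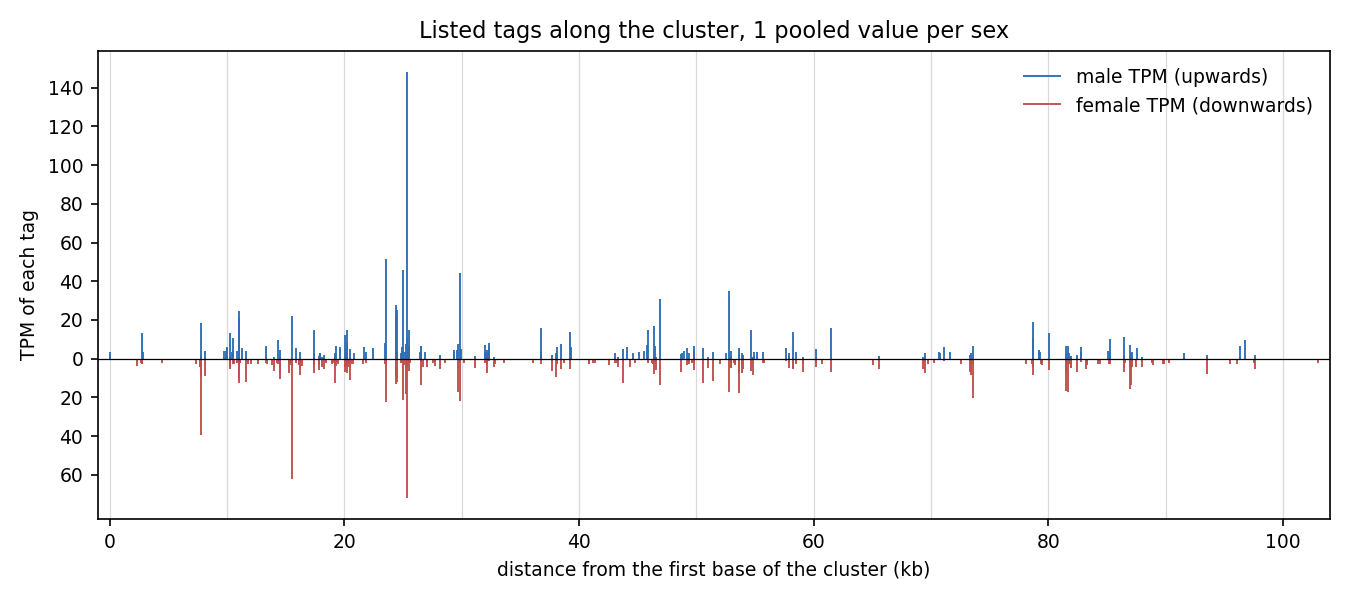
TPM of each of the 349 tags (y axis), male upwards and female downwards, against its distance from the first base of the cluster in kb (x axis), with 1 pooled value per sex and no error drawn. The tallest line of both sexes is the tag 25.3 kb in, at 148 TPM (male) and 71.7 TPM (female), and the tallest female-higher tag is 15.5 kb in, at 62.0 and 21.8.

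Tags were unevenly spread along the cluster. The windows from 10 to 20 kb and from 20 to 30 kb held 67 tags each, together 38.4% of the tags, 45.2% of the female and 55.5% of the male counts. The window at 80 to 90 kb was next with 48 tags, while the first 10 kb held 19. The windows at 60 to 70 kb and 90 to 100 kb held 11 and 9 tags, and the last 3 kb held 1. Counted from the first base, female counts reached 50% of their sum at 29.9 kb and male counts at 25.3 kb, on the most counted tag itself. At 75% of the sum they were at 58.2 kb and 49.8 kb.

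Of the 11 windows of 10 kb, 5 were led by females, 2 by males and 4 by neither sex. The strongest male lead was at 20 to 30 kb, bases 391515 to 401514, where 948 female and 1193 male counts gave a ratio of 1.64 (1.50 to 1.78). This window held 24.9% (23.5 to 26.3) of the cluster's female counts and 41.0% (39.2 to 42.8) of its male counts, shares that no scaling changes. In it 37 of 67 tags were male-higher, 55.2% (42.6 to 67.4). The window at 40 to 50 kb was the other led by males, with 273 female and 269 male counts and a ratio of 1.28 (1.08 to 1.52). Both leads changed with the scaling, as RLE factors turned them to 0.72 and 0.57 and TMM factors turned the weaker one to 0.94. These factors came from the listed tags alone, so the turns do not decide whether the leads hold. Without the 28-nt tag at 418408, among the 10 most counted of the cluster with 37 female and 63 male counts, the window at 40 to 50 kb stood at 1.13 (0.94 to 1.37) and was led by neither sex.

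The strongest female lead among the windows was at 80 to 90 kb, bases 451515 to 461514. There were 512 female and 194 male counts, a female lead of 2.03-fold (1.72 to 2.41), and 37 of 48 tags were female-higher. It held 13.4% (12.4 to 14.6) of the female and 6.67% (5.79 to 7.63) of the male counts of the cluster. Its lead did not come from 1 tag, since the most counted one, at 453147 to 453173 with 46 female and 13 male counts, held 8.98% of its female counts. The windows from 0 to 10 kb, 10 to 20 kb and 50 to 60 kb had female leads of 1.45-fold (1.17 to 1.81), 1.41-fold (1.25 to 1.59) and 1.38-fold (1.19 to 1.62). The window at 60 to 70 kb, with 114 female and 54 male counts, had one of 1.62-fold (1.17 to 2.29). The lead at 0 to 10 kb rested on the tag at 379290, which held 43.3% of the window's female counts, and without it the male over female ratio was 0.86 (0.65 to 1.13). With tags under 10 TPM in both sexes left out, 6 tags of the window at 50 to 60 kb remained with a ratio of 1.10, and at 60 to 70 kb a single male-higher tag of 2.38-fold remained. That tag reached 10 TPM in males alone (16.0, against 6.72 in females), so the filter itself set its direction. At that level the ratios at 0 to 10 kb and 10 to 20 kb, 0.74 (0.54 to 1.01) and 0.87 (0.74 to 1.03), no longer excluded 1, and the one at 80 to 90 kb was 0.71 (0.56 to 0.90).

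The windows at 30 to 40, 70 to 80 and 90 to 100 kb were led by neither sex, with ratios of 1.18 (0.96 to 1.44), 0.97 (0.79 to 1.20) and 0.97 (0.65 to 1.44). At 30 to 40 kb 2 tags reached 10 TPM in either sex, with a ratio of 3.60 (2.18 to 6.16). Both reached it in males alone, so the filter itself set their male lead, which says nothing more about the window. The last 3 kb held the single closing tag of the cluster, with 6 female counts.

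**Figure D3:**
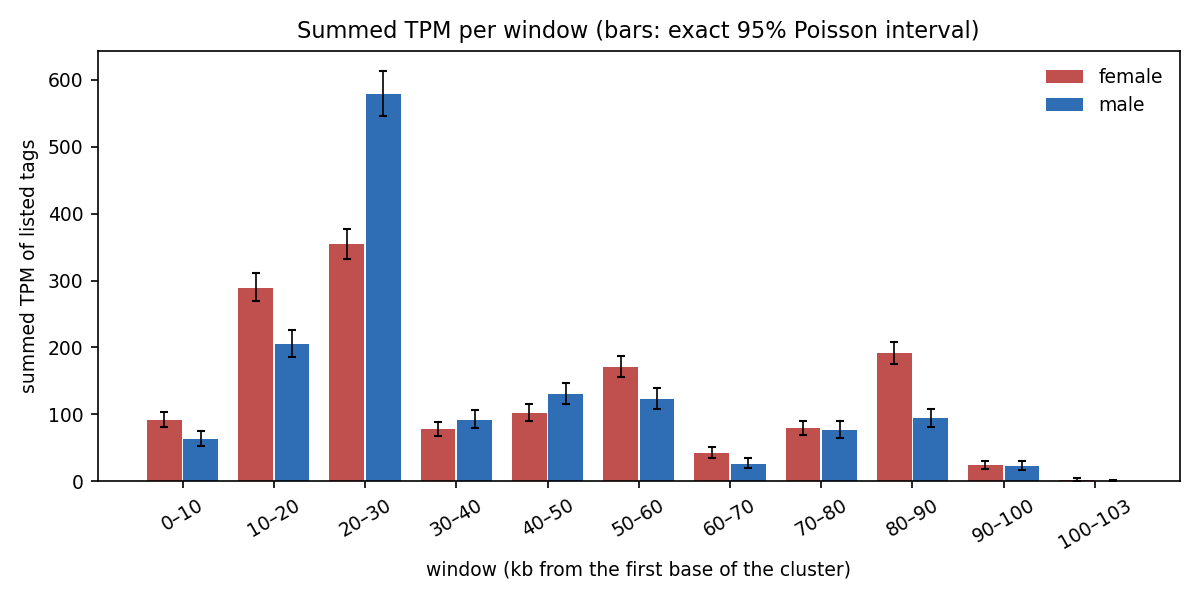
Summed TPM of the listed tags (y axis) in windows of 10 kb from the first base of the cluster (x axis), females in red and males in blue; bars are single pooled values and error lines are exact 95% Poisson intervals. The male bar stands above the female bar at 20 to 30 kb (579 against 354), an order that RLE factors turn, and the female bar is the higher at 80 to 90 kb (191 against 94.2).

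At a finer scale bins led by either sex were found along the cluster. Of 103 bins of 1 kb, 79 held tags and 20 held at least 100 counts, which together made 67.9% of all counts. Of these 20 bins, 7 were led by females, 7 by males and 6 by neither. Among these 20, the female-led bins reached ratios further from 1. The most female was 73 kb in, with 129 female and 24 male counts and a female lead of 4.14-fold (2.66 to 6.69), and the leads at 53 and 81 kb were both 3.70-fold. The bins at 7 and 15 kb, which hold the tags at 379290 and 387062, had female leads of 3.32-fold (2.36 to 4.76) and 3.16-fold (2.35 to 4.31). The most male was 24 kb in, with 181 female and 326 male counts, a ratio of 2.34 (1.95 to 2.82), and with RLE factors it alone of the 7 male-led bins stayed above 1, at 1.04. Neighbouring bins could differ, as at 52 and 53 kb, with ratios of 1.33 (0.98 to 1.81) and 0.27 (0.18 to 0.40). Bins with fewer than 100 counts held larger leads of both sexes. The bin at 88 kb had 26 female and 2 male counts, a ratio of 0.10 (0.0115 to 0.40). The bin at 9 kb had 2 female and 39 male counts, a ratio of 25.3 (6.56 to 217), and the bin at 45 kb had 6 and 60, a ratio of 13.0 (5.63 to 36.8), all 3 chosen after their values were seen.

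**Figure D4:**
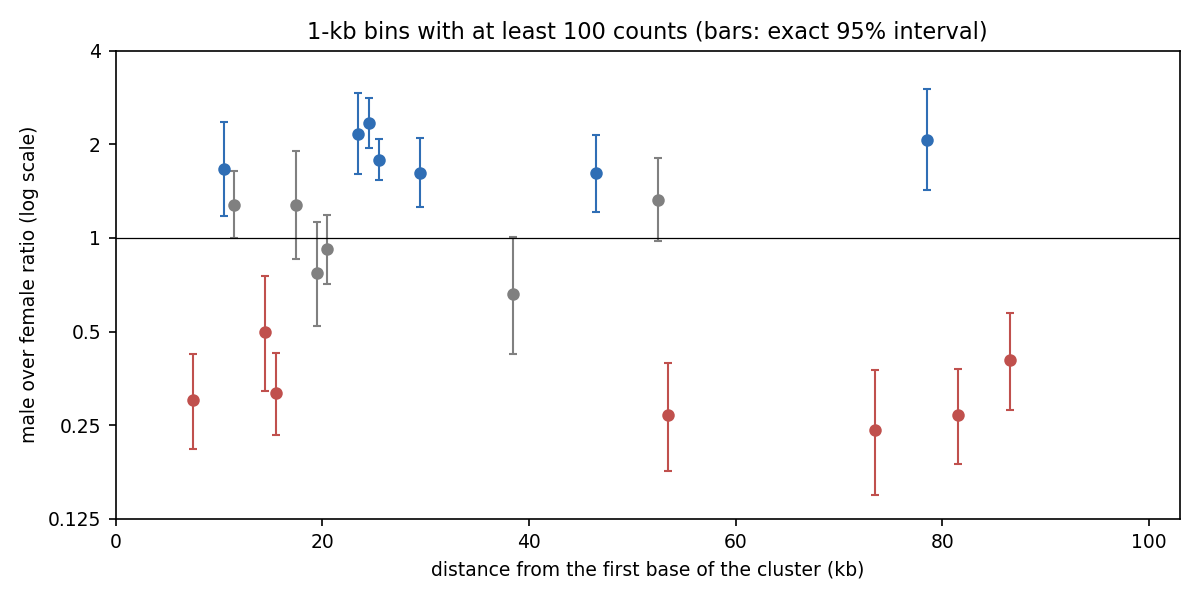
Ratio of male to female TPM (y axis, log scale) in the 20 bins of 1 kb with at least 100 counts, against distance from the first base of the cluster in kb (x axis); error lines are exact 95% intervals of counting error, blue is led by males, red by females and grey by neither. Blue points lie from 10 to 78 kb, with adjoining ones at 23 to 25 kb. Red points lie from 7 to 86 kb, with none between 15 and 53 kb. With RLE factors 6 of the 7 blue points fall below 1.

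Counts of both sexes, those of males more so, were concentrated in a 2.11-kb stretch at bases 395027 to 397132, 23 to 26 kb into the cluster. It joined the 3 adjoining male-led bins and was chosen after their values were seen. The stretch held 28 tags, 20 of them male-higher, with 559 female and 867 male counts. Its ratio was 2.02 (1.81 to 2.25), and 0.89 with RLE factors. The stretch held 14.7% of the female and 29.8% of the male counts of the cluster. Without its most counted tag it held 9.63% and 19.3%. The ratio without that tag was 1.99 (1.74 to 2.28). The tag's own ratio of 2.06 was close to that of the stretch, whose bins were chosen for their male lead. Leaving it out is therefore no independent check of the lead. In the bin at 25 kb, which holds the tag, the ratio fell from 1.79 to 1.31 without it. The interval of the lower value only just excluded 1.

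Within the stretch some male-higher tags overlapped in small stacks. At 395931 to 395968, tags of 27, 28 and 31 nt had 35, 24 and 22 female counts and 57, 45 and 37 male counts, and all 3 were male-higher. At 396806 to 396846, the most counted tag lay with a 24-nt tag that started 1 base before it, with 8 female and 23 male counts, and a 26-nt tag with 7 male counts and 0 listed in females. Of the 8 female-higher tags of the stretch, 3 shared an end with a male-higher tag. A 25-nt tag with 7 female counts started at 395032 with the 27-nt tag described above, a 29-nt tag with 9 female counts started at 396644 with a 26-nt tag of 7 male counts, and a 27-nt tag with 6 female counts ended at 396393 with a 28-nt tag of 6 male counts. The 27-nt tag at 396775 to 396801 had 49 female and 16 male counts, a female lead of 2.36-fold (1.32 to 4.44), and lay just before the most counted male-higher tag.

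Merging overlapping tags left 248 loci, of which 179 held a single tag and 69 held 2 to 5. Of the 69, 28 held female-higher tags alone, 14 male-higher tags alone and 27 both. The largest stack, at 453129 to 453192, held 5 female-higher tags with 71 female and 13 male counts in sum. The tags at 450217 to 450256 were 4, all male-higher, with 35 female and 78 male counts. The locus at 381477 to 381531 held 3 male-higher tags with 2 female and 31 male counts. By summed TPM, 94 loci were higher in males and 154 in females.

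The leaders of neighbouring loci were compared in order along the cluster. Neighbouring loci had the same leader in 132 of 247 pairs, 53.4%. The same share was 52.5% in the next cluster upstream on the scaffold, 55.7% in the region at NW_021837489.1 2319772 to 2363743 and 69.4% in the region with most nuclear tags, NW_021838599.1 5379067 to 5502690. These shares also move with the balance of leaders, since 37.9% of loci were male-led here, and 46.5%, 50.7% and 22.9% in those regions, and the differences were not tested. No share for a random order of leaders was worked out, so none of these values shows an arrangement along the cluster. The longest row of one leader was 10 male-led loci at 393185 to 396672, with 274 female and 486 male counts, and the longest of females was 8 loci at 444050 to 450156, with 151 and 24.

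Some tags shared an end and differed in length. There were 11 pairs with the same first base and 17 with the same last base. Both tags of a pair leaned to the same sex in 19 of these 28 pairs, 11 to females and 8 to males, and to opposite sexes in 9. In the opposed pairs the longer tag was male-higher in 5 and female-higher in 4. In 1 opposed pair both tags had counts in both sexes. It ended at base 381824, where the 28-nt tag had 12 female and 27 male counts and the 27-nt tag had 12 and 2. At base 388980, a 26-nt tag had 20 female and 31 male counts, and a 28-nt tag from the same first base had 9 female counts and 0 listed in males.

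Overlaps between tag ends were few. The ping-pong cycle, in which a piRNA guides the cut that makes the next piRNA, leaves partners on opposite strands whose 5′ ends overlap by 10 bases. Strand was not used here, so overlaps between the end of one tag and the start of another were counted from positions alone. There were 5 pairs (1.62 to 11.7) at 10 bases, and 1, 2, 3 and 2 pairs at 8, 9, 11 and 12. Pairs at 7 bases were the most numerous from 1 to 20 bases, at 7. Tags that followed each other with no gap, the spacing left by head-to-tail cutting of a transcript, made 6 pairs. Gaps of 1, 2, 3, 4 and 5 bases had 4, 6, 0, 6 and 8 pairs, so the number with no gap did not stand out. The interval for 10 bases includes the mean of 2 pairs at the 4 neighbouring distances. Partner tags less than 2-fold apart between the sexes are not listed, and pairs were few. These counts therefore cannot show whether either spacing is present or absent among all small RNAs of the cluster.

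The commonest lengths in the cluster were 27 and 28 nt, as in the rest of the table. These lengths made up 167 of 349 tags, 47.9% (42.5 to 53.2), beside 48.2% of other nuclear tags, and 24 or 25 nt made up 65 tags, 18.6% (14.7 to 23.1), beside 17.9%. By direction, 42.7% (34.1 to 51.7) of the male-higher tags and 50.9% (44.1 to 57.7) of the female-higher ones were 27 or 28 nt, with overlapping intervals. For 24 or 25 nt the shares were 19.1% (12.7 to 26.9) and 18.3% (13.4 to 24.1), where in other nuclear tags they were 22.8% and 15.8%. Of the tags of 24 nt, 13 were male-higher and 12 female-higher, and of those of 29 nt 19 and 18. Of 40 tags of 25 nt 28 were female-higher, and of 99 of 27 nt 64, close to the 62.5% of the whole cluster. Of 12 tags of 31 to 33 nt, 8 were female-higher, and the most counted was the 31-nt tag at 382518 to 382548, with 27 female and 43 male counts.

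By counts, the shortest tags took a larger share in males. Tags of 24 or 25 nt held 25.8% (24.3 to 27.5) of the male and 20.1% (18.9 to 21.4) of the female counts. Without the 25-nt tag at 396822 these shares were 17.2% (15.7 to 18.7) and 15.9% (14.7 to 17.1), and their intervals overlapped. At 24 nt alone, a length that tag does not have, 25 tags held 5.98% (5.15 to 6.90) of the male and 4.17% (3.56 to 4.85) of the female counts, with intervals apart. With that tag left out of the sums, these were 6.68% (5.75 to 7.71) and 4.39% (3.75 to 5.11), and 25 nt held 10.5% (9.33 to 11.7) and 11.5% (10.5 to 12.6). The male over female ratio was 1.42 (1.14 to 1.77) at 24 nt and 1.24 (1.10 to 1.39) at 25 nt, and RLE factors turn both below 1. Summed over length classes, 24 or 25 nt stood at a ratio of 1.27 (1.15 to 1.41), 27 or 28 nt at 0.91 (0.85 to 0.97), and 29 or 30 nt at 0.98 (0.83 to 1.15).

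**Figure D5:**
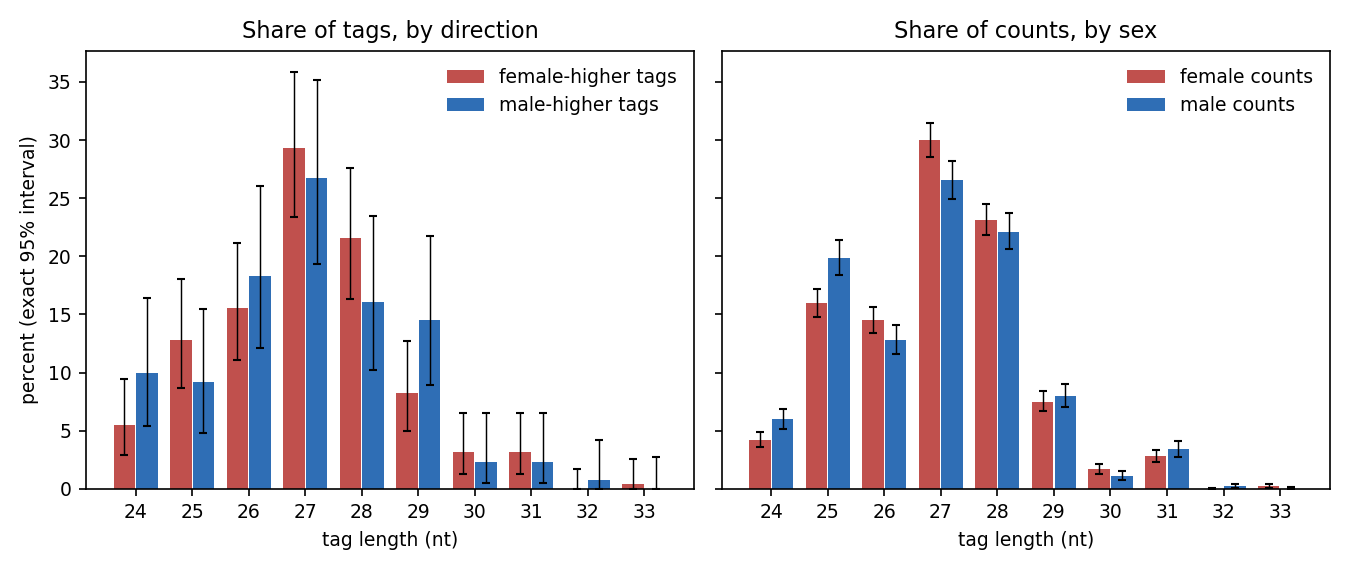
Tag lengths in nt (x axes) against percent (y axis) of the 218 female-higher and 131 male-higher tags at left, and of the 3812 female and 2910 male counts at right; error lines are exact 95% intervals. At left the intervals of the sexes overlap at every length, and at right the male bar exceeds the female bar at 24 nt (5.98% against 4.17%) and at 25 nt, where the tag at 396822 alone has 305 male and 192 female counts.

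Lengths differed little along the cluster. The male-led window at 20 to 30 kb had a mean length of 27.1 nt, with 16 of 67 tags at 24 or 25 nt and 27 at 27 or 28 nt. Among its 37 male-higher tags 8 were 24 or 25 nt and 17 were 27 or 28 nt, and among its 30 female-higher tags these were 8 and 10. The female-led window at 80 to 90 kb also had a mean of 27.1 nt, with 8 of 48 tags at 24 or 25 nt and 19 at 27 or 28 nt. At 50 to 60 kb 23 of 38 tags were 27 or 28 nt, and none of its 12 male-higher tags was 24 or 25 nt, beside 5 of its 26 female-higher tags. Over the 10 windows with more than 1 tag, mean lengths lay between 26.5 and 27.7 nt. In the male-led stretch, 24 or 25 nt made up 8 of 28 tags, 28.6% (13.2 to 48.7), and held 56.4% (53.0 to 59.7) of its male and 54.0% (49.8 to 58.2) of its female counts, shares whose intervals overlapped. Without the tag at 396822 they held 184 of 562 male counts (28.9% to 36.8%) and 110 of 367 female counts (25.3% to 34.9%).

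Among the better counted tags the male-higher share was near that of the table as a whole. Of tags that reached 10 TPM in one sex or both, 32 of 50 were male-higher, 64.0% (49.2 to 77.1), beside 63.1% of all listed tags of that level. The interval includes 50%, and 10 TPM stood for fewer counts in males, whose total was smaller. It took 26 tags to reach 50% of the male counts, against 48 tags for the female counts. Fewer tags had male counts at all, with 73 listed in males alone, 156 in females alone and 120 in both. The comparison does not allow for this. The 10 most counted tags of each sex held 32.2% of the male and 21.9% of the female counts. These shares were 28.6% and 20.2% in the next cluster upstream, 19.7% and 16.6% in the region on NW_021837489.1, and 28.8% and 27.6% in the region with most nuclear tags. In those regions too fewer tags reached 50% of the male than of the female counts, 24 against 37, 45 against 69 and 30 against 47.

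The cluster ranked 5 by number of tags among the 485 nuclear regions of at least 5 tags formed by gaps of at most 10 kb. Its first tag, at 371515 to 371541, had 7 male counts and its last, at 474462 to 474486, had 6 female counts. The nearest listed tags outside it were 35.4 kb upstream, with 8 male counts, and 356 kb downstream, with 9 male counts, and both had 0 listed in females. The upstream one closed a cluster of 188 tags at 289677 to 336163, whose 1417 female and 1411 male counts gave a ratio of 1.29 (1.20 to 1.39), and 87 of its tags were male-higher, 46.3% (39.0 to 53.7). Its ratio stood above that of the longer cluster beyond counting error, a difference that could not be tested over samples. Which genes or repeats the cluster crosses was not analysed here, nor whether its tags also match other positions.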

How the data were processed

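The labels give 3 small RNA libraries per sex. Per the labels' protocols, small RNAs were cut from a denaturing gel of TRIzol RNA and ligated to adaptors. The submitters' processing notes name the read trimmer Trimmomatic 0.30. How reads were aligned and counted, on which genome build, how libraries were joined and how listed tags were chosen are details not given in these sources. Deposited counts are whole numbers per tag and sex. Going by the values themselves, TPM equals the count divided by a fixed total per sex and scaled, with 0 written as 0.01. The deposited log2 values equal male over female TPM.

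With 1 column per sex no test and no p-value were possible. Poisson intervals were exact, and those of shares and ratios were Clopper-Pearson, computed in Python 3.11.15 with SciPy 1.17.1 and checked on simulated data. Shares of tags treat overlapping tags as independent, which makes those intervals too narrow, and reads that carry no molecular identifiers may repeat 1 molecule. Scaling alternatives used edgeR 4.0.16 in R 4.3.3, on a list that lacks unchanged tags. Members, windows and rules were chosen with earlier results of these data known. Tags named were, per direction, the 8 most counted, the 4 most counted in one sex alone and the 4 with the largest ratio among those with at least 2 counts in each sex and 20 in all, plus the highest of each window and those at the edges. The table pairs no tag with a gene or piRNA, so tags are named by position, with the table's own ID for 2 per direction.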

Additional observations from a re-analysis of the deposited data

How the results depend on the processing

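No paired analysis was possible because the table holds 1 column per sex, and leaving out a library was not possible for that reason. The cluster's ratio of 0.99 became 0.92 when scaled to the sum of the list, 0.73 with TMM, 0.44 with RLE and 1.05 with upper quartile factors. It became 1.33 at a TPM of at least 10, 0.94 without the most counted tag, 0.85 without the 10 most counted and 0.82 without the male-led stretch, whose bins were chosen for their male lead, so that leaving it out had to lower the ratio. Male-higher tags numbered 117 with RLE factors and 32 of 50 at a TPM of at least 10. Windows led by females, males and neither numbered 5, 2 and 4. They became 7, 1 and 3 with TMM, 11, 0 and 0 with RLE, 1, 4 and 4 at a TPM of at least 10, and 4, 1 and 6 without the 10 most counted tags. Without the stretch they were 5, 1 and 5. Windows of 5 kb gave 8, 4 and 9, windows of 20 kb 2, 1 and 3, and bins of 1 kb, added after the data were seen, 31, 19 and 29. The 8 runs of tags split at gaps over 2 kb became 22 at 1 kb and 2 at 5 kb. RLE factors came from the listed tags alone, none of them within 2-fold, so turns under them do not decide a lead. With these factors, male leads turned in the windows at 20 and 40 kb (0.72 and 0.57) and in the stretch (0.89). They also turned in the bins at 10, 23, 25, 29, 46 and 78 kb (0.74, 0.96, 0.79, 0.72, 0.71 and 0.92). So did the tags at 395932, 396021, 396500, 396822, 401401, 418408 and 424306 (0.94, 0.94, 0.95, 0.91, 0.90, 0.98 and 0.90). TMM turned the 40 kb window to 0.94, and a TPM of at least 10 turned those at 50 and 60 kb to 1.10 and 2.38. The value of 2.38 is that of 1 tag, which reached 10 TPM in males alone. At that level 5.56% of 18 female-higher tags were 24 or 25 nt, where 7 of all 50 tags, of both directions, had these lengths. Tags of 27 or 28 nt made up 61.1% of the female-higher tags, beside 56.2% of 32 male-higher tags. Beyond the arithmetic of each setting, the cause was not tested.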
